A study of Mus musculus with 2 samples.

Results

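The genes described here are the 9 that encode the AMPA and kainate receptor subunits, Gria1 to Gria4 and Grik1 to Grik5. They were chosen by gene symbol and not by a measured value, though with earlier results of these data known. They are 9 of the 32285 genes in each deposited matrix. All 9 were counted in both libraries. The nuclei came from the dissected amygdala of C57BL6/J mice aged 6 to 8 weeks, and gave 1 WT library and 1 library of Sema6d-/- (KO) animals. Sema6d encodes a membrane-bound semaphorin, one of the proteins that guide growing axons. The number of animals, their sex and the deleted stretch of Sema6d were not stated in the labels. As each genotype has a single library, differences have no replicate check and no test was made. The exact 95% intervals given below cover counting error alone. Where a pair of values is given without names, WT comes first and KO second.

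AMPA and kainate receptors are ion channels that glutamate opens, and they carry much of the fast excitatory transmission in the brain. Each channel is built of subunits from 1 family: Gria1 to Gria4 encode the AMPA receptor subunits GluA1 to GluA4, and Grik1 to Grik5 the kainate receptor subunits GluK1 to GluK5. Edited GluA2 makes an AMPA channel nearly impermeable to calcium, so the GluA2 content of a cell type bears on its calcium entry. GluK1 to GluK3 can form channels by themselves, whereas GluK4 and GluK5 bind glutamate tightly and need one of the others as a partner.

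After filtering there were 10369 WT nuclei with 79305700 UMIs (unique molecular identifiers, counted RNA molecules) and 7911 KO nuclei with 56736373 UMIs, with medians of 7196 and 6418 UMIs per nucleus. Nuclei were assigned to types by gates on marker genes, none of them a Gria or Grik gene. The WT library gave 1281 excitatory and 5911 inhibitory neurons and the KO library 938 and 3428, and 8 neuron types held at least 50 nuclei in each library. The dissection included striatal-like neurons: 943 WT and 516 KO nuclei passed the gate for D1 medium spiny-like neurons, and 1404 and 707 that for D2 medium spiny-like neurons. Amygdala types were present as intercalated-like neurons (645 and 393) and as Rspo2 basolateral-like excitatory neurons (232 and 149), while only 8 nuclei in each library passed the gate for Prkcd central amygdala neurons. The other types compared were MGE interneuron-like (244 and 213), CGE interneuron-like (133 and 108), Prlr GABA (130 and 81) and Pdzrn3 Nwd2 excitatory neurons without Rspo2 (258 and 134), the first pair named for the medial and caudal ganglionic eminences where such interneurons arise. The numbers of markers and UMIs that each gate required were set after the matrices had been seen. Of the excitatory neurons, 420 in WT and 289 in KO stood at the minimum number of markers, and all Pdzrn3 Nwd2 neurons did, since their list holds 3 genes. No class gate was met by 7.49% of WT and 11.6% of KO nuclei. A further 850 WT and 485 KO neurons were classed as neither excitatory nor inhibitory. The named types hold only part of each neuron class, so class values also include nuclei of no named type. Sema6d itself stood at 632 CPM (UMIs per 1000000 UMIs of the group) in WT and 686 CPM in KO over all nuclei. As the deleted stretch is not given, this checks nothing about the label. The mitochondrial share of UMIs was lower in KO in each class and in each of the 8 types, for example a median of 0.566% in WT and 0.189% in KO in excitatory neurons. The libraries shared 128 barcode sequences.

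The promoters of Grik3 and Grik5 are shown because both genes were among the 3 members lower in the KO excitatory neurons by more than 1.3-fold, a choice made after the values were seen. RefSeq promoter sequence (GRCm38.p6) was matched for 6 of the 9 members. The 250 bases before the start site are given 5′ to 3′ on the gene's strand, with capitals marking the GC box GGGCGG on either strand, the letters that Sp1-family factors are known to bind. Grik3 lies on chromosome 4 on the plus strand (window chr4:125490446-125490695) and Grik5 on chromosome 7 on the minus strand (window chr7:25072370-25072619).
Grik3: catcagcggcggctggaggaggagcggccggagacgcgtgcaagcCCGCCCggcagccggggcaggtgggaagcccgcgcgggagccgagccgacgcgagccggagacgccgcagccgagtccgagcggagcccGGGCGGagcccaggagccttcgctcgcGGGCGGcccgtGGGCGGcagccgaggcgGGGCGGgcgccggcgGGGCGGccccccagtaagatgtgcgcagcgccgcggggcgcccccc
Grik5: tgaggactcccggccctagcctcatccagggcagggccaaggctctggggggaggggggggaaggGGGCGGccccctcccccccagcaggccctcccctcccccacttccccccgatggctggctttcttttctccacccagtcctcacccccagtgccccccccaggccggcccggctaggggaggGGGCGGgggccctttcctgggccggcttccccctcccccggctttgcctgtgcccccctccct
The Grik3 window held 6 GC boxes, 5 on the gene's strand and 1 on the other, and was 82.0% G or C. The Grik5 window held 2 GC boxes and was 75.2% G or C. Of the 6 matched members 3 held a GC box (Grik3, Grik4 and Grik5), against 32.7% of 32851 mouse promoters of the same length, and 0.89% of those promoters held 6 or more. The windows of Gria2, Gria4 and Grik2 held none. A match describes the letters in the window and says nothing of whether a factor binds there.

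Among the AMPA receptor genes, Gria2 was the most even across the 8 neuron types compared and Gria4 the least. Gria2, for the subunit that controls calcium permeability, was highest in D2 medium spiny-like neurons, at 1407 (WT) and 1558 CPM (KO), and lowest in CGE interneuron-like neurons, at 994 and 1158 CPM. This is a spread of 1.42-fold in WT and 1.34-fold in KO over 8 types. In KO the counting intervals of neighbouring types in the order overlapped, from the D2 type down to Prlr GABA neurons. Neighbouring places are thus not distinguished there. The D2 interval (1527 to 1589) did lie above those of D1 medium spiny-like neurons (1442 to 1510) and Prlr GABA neurons (1315 to 1482).

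Gria4, for the fast-gating subunit GluA4, was highest in MGE interneuron-like neurons at 1788 CPM (WT, 1735 to 1842) and 1870.5 CPM (KO, 1814 to 1928). D2 medium spiny-like neurons held the least, 531 and 579 CPM, which made the interneurons 3.37-fold higher in WT and 3.23-fold in KO. Prlr GABA neurons (1164 and 1277 CPM) and CGE interneuron-like neurons (1049 and 1214 CPM) followed, and their intervals overlapped in both libraries. The order thus put MGE interneuron-like neurons first and D2 neurons last in both libraries. Gria4 made up 36.9% of Gria UMIs in the MGE type in WT and 35.0% in KO, against 11.8% and 13.0% in the D2 type.

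Gria1, for the subunit GluA1 that takes part in activity-dependent receptor insertion, was highest in intercalated-like neurons, the clusters of small inhibitory cells between the amygdala nuclei. It stood there at 2301 CPM (WT, 2257 to 2346) and 1922 CPM (KO, 1869 to 1976). D1 medium spiny-like neurons held 1767 and 1522 CPM, and the KO ratio between these types was 1.26-fold. At the low end, CGE interneuron-like neurons (1112 and 988 CPM) and Pdzrn3 Nwd2 excitatory neurons (1099 and 1066 CPM) had overlapping intervals in both libraries. Gria1 accounted for 49.0% of Gria UMIs in intercalated-like neurons in WT and 41.6% in KO, the highest share in both libraries among the 8 types.

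Gria3, for the subunit GluA3, was highest in D2 medium spiny-like neurons (889.7 and 873 CPM), with Rspo2 basolateral-like neurons (853 CPM in each library) overlapping them in both. It was lowest in CGE interneuron-like neurons (433 and 487 CPM) and next lowest in intercalated-like neurons (471 and 516 CPM). Intercalated-like neurons therefore combined the highest Gria1 with a Gria3 level 0.560 times (WT) and 0.627 times (KO) that of D1 medium spiny-like neurons.

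**Figure D1:**
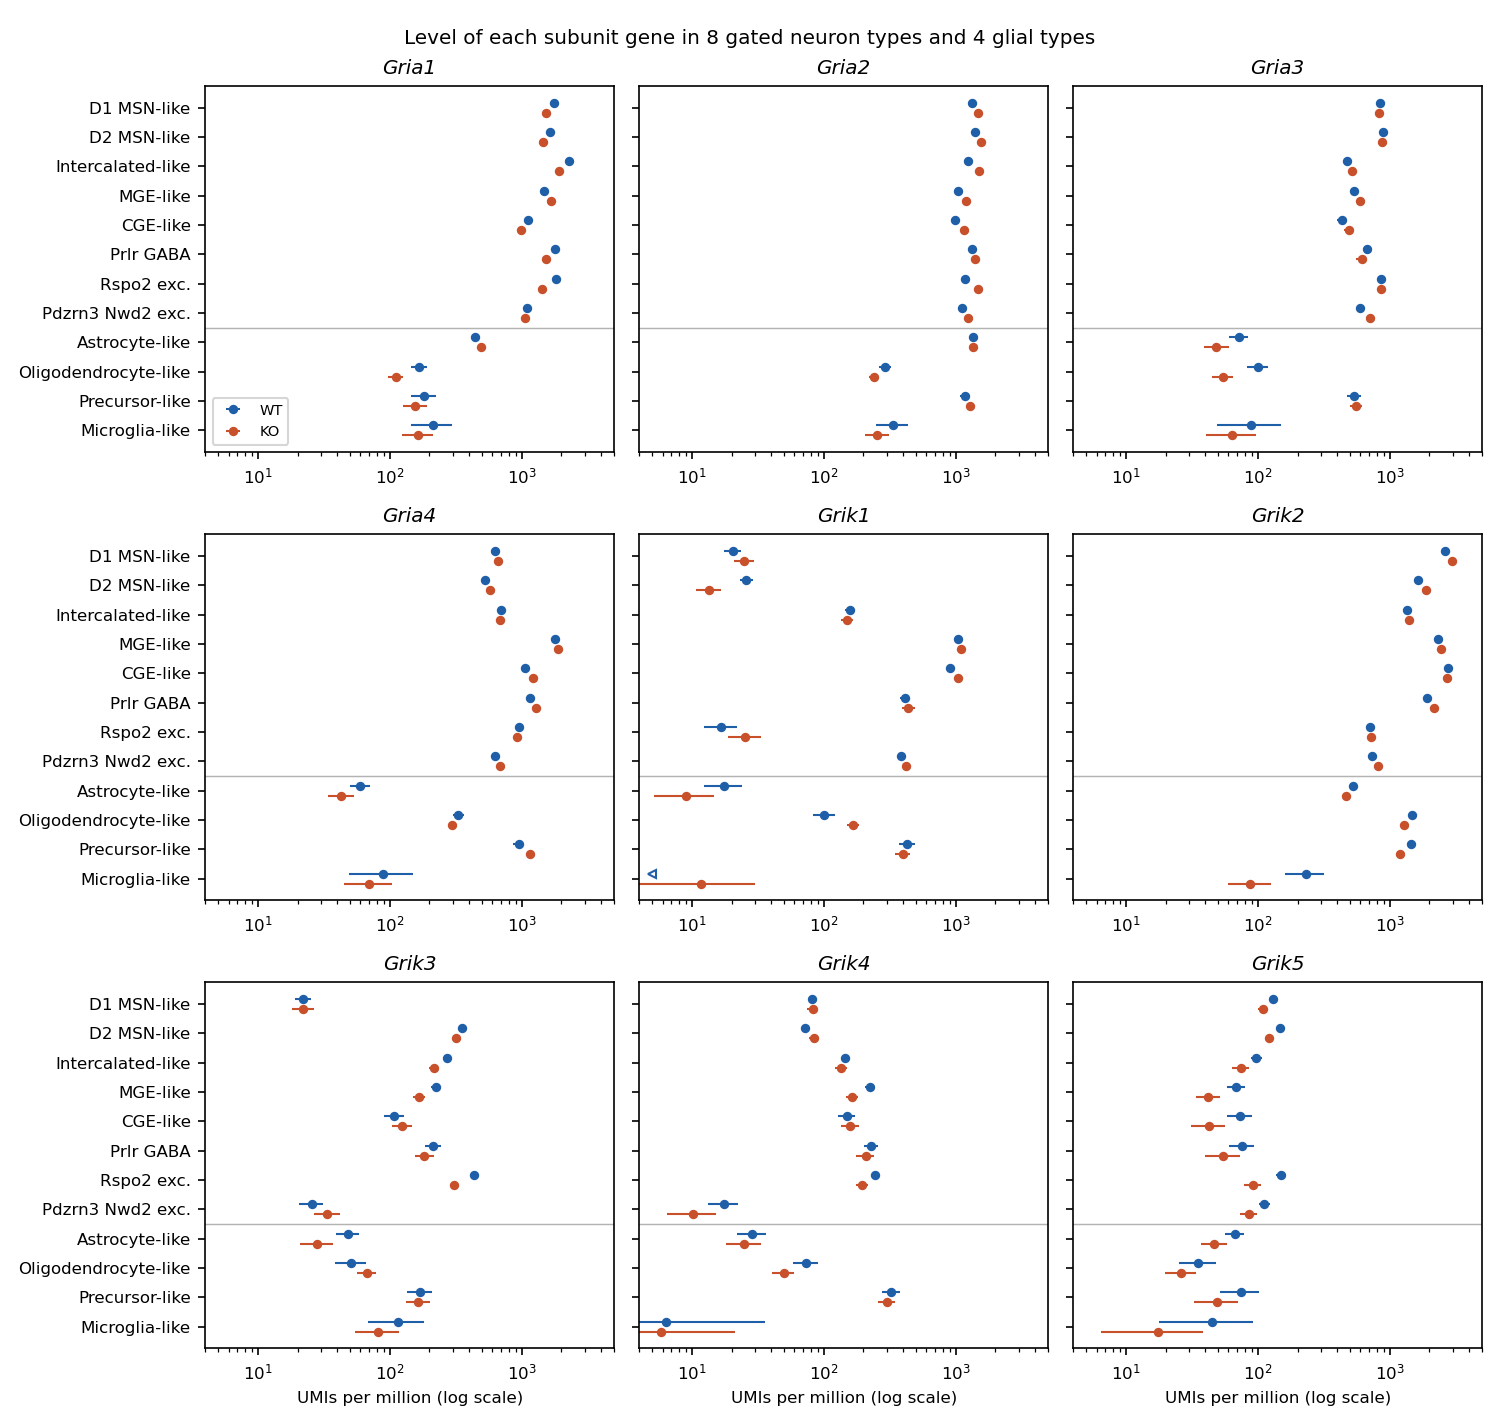
Level of each subunit gene, in CPM on a log axis, in the 8 gated neuron types and, under the grey line, the 4 glial types. Blue points are the WT library and red points the KO library, bars are exact 95% counting intervals, and an open triangle marks a count of 0. Gria2 is nearly even across these 8 neuron types, whereas Grik1 runs from 16.8 to 1035 CPM in WT.

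The kainate receptor genes divided the neuron types more sharply. Grik1, for GluK1, was highest in MGE interneuron-like neurons at 1035 CPM (WT, 995 to 1076) and 1091 CPM (KO, 1048 to 1135). CGE interneuron-like neurons followed at 905 and 1039 CPM, and the intervals of these types overlapped in KO but not in WT. Prlr GABA neurons held 414 and 438 CPM and Pdzrn3 Nwd2 excitatory neurons 385 and 422 CPM. The low end was held by Rspo2 basolateral-like neurons (16.8 and 25.3 CPM), D1 medium spiny-like neurons (20.4 and 24.9 CPM) and D2 medium spiny-like neurons (25.9 and 13.4 CPM).

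These low values were compared with free RNA, which gives UMIs to nuclei that do not express a gene, using microglia-like nuclei as the reference. After each nucleus was thinned to 1000 UMIs, 1.48% of D1 medium spiny-like nuclei in WT and 1.16% in KO had a Grik1 UMI, and 1.29% and 0.671% of Rspo2 basolateral-like nuclei. In microglia-like nuclei, which should lack the gene, the share was 0 of 92 nuclei in WT, with an exact upper bound of 3.93%, and 0.952% in KO (0.115 to 3.40). The low neuron shares lie within these bounds and were not told apart from free RNA. With so few microglia-like nuclei the bounds are wide, so low expression in these neurons is not excluded. MGE interneuron-like nuclei had a Grik1 UMI in 43.9% of cases in WT and 49.8% in KO. Without thinning, median depths were 1546.5 and 1542.5 UMIs in microglia-like nuclei and 8745 and 8949 in the MGE type. Oligodendrocyte markers summed to 1233 and 1611 CPM in microglia-like nuclei, but to 322 and 319 CPM in D1 medium spiny-like neurons. The microglia-like reference may therefore overstate free RNA in neurons, and thinning does not remove that difference.

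Grik3, for GluK3, separated neurons that Grik1 did not. In the medium spiny-like types, D2 neurons held 354 CPM (WT, 344 to 365) and 319.5 CPM (KO, 306 to 334). D1 neurons held 22.1 CPM (WT, 19.1 to 25.4) and 22.1 CPM (KO, 18.2 to 26.6), or 0.0623 times (0.0538 to 0.0719) and 0.0692 times (0.0567 to 0.0837) the D2 level. After thinning, 31.6% of D2 nuclei had a Grik3 UMI in WT and 27.6% in KO, against 2.23% and 1.36% of D1 nuclei. Microglia-like nuclei had 8.70% and 9.05%, above the D1 share. The D1 value was thus not told apart from free RNA, and both ratios are read as upper bounds. The other members differed less between D1 and D2 neurons: Grik2 was 1.59-fold higher in D1 neurons in WT and 1.56-fold in KO, and the 4 Gria genes stayed between 0.942 and 1.17 times.

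The excitatory types also differed in Grik3, and Rspo2 basolateral-like neurons held 433 CPM (WT, 409.5 to 458) and 308 CPM (KO, 284 to 334). Pdzrn3 Nwd2 excitatory neurons held 25.5 and 33.7 CPM. After thinning, 2.71% and 0.746% of their nuclei had a Grik3 UMI, under the 8.70% and 9.05% of microglia-like nuclei. This level was thus not told apart from free RNA. Grik4, for the high-affinity subunit GluK4, followed the same split, with 244 (WT) and 195 CPM (KO) in the Rspo2 type against 17.4 and 10.2 CPM in the Pdzrn3 Nwd2 type. Grik1 ran the other way, at 16.8 and 25.3 CPM in the Rspo2 type and 385 and 422 CPM in the Pdzrn3 Nwd2 type. Its values in the Rspo2 type were not told apart from free RNA. The Rspo2 type, which carries a basolateral marker, thus held Grik3 and Grik4, and the Pdzrn3 Nwd2 type held Grik1. After thinning, a Grik4 UMI was found in 14.7% and 21.5% of Rspo2 nuclei, and in 1.16% of Pdzrn3 Nwd2 nuclei in WT and 0 of 134 in KO, with an exact upper bound of 2.72%. Microglia-like nuclei had 0 of 92 and 0.952%, so Grik4 in the Pdzrn3 Nwd2 type was not told apart from free RNA either. The share in the Rspo2 type runs against its CPM between the libraries, so no order of the libraries is read from it.

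Elsewhere Grik4 was at 229 and 207 CPM in Prlr GABA neurons and 224 and 164 CPM in MGE interneuron-like neurons, and the intervals of these types and the Rspo2 type overlapped in sequence in both libraries. The medium spiny-like types were low, between 72.0 and 84.0 CPM. Grik2, for GluK2, was highest in CGE interneuron-like neurons in WT (2761 CPM, against 2605 CPM in D1 neurons) and in D1 medium spiny-like neurons in KO (2963 CPM, against 2719.5 CPM in the CGE type). It was lowest in the Rspo2 type, at 706 and 720.1 CPM, and all 6 inhibitory types exceeded both excitatory types in both libraries. Annotated genes Gm26543 and Gm47018 overlap Grik2 on its strand, with 377 and 280 UMIs in WT excitatory and inhibitory neurons together.

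Grik5, for the high-affinity subunit GluK5, was highest in WT in Rspo2 basolateral-like neurons (150.1 CPM) and D2 medium spiny-like neurons (148 CPM), whose intervals overlapped, and in KO in the D2 type (121 CPM). The lowest level was in MGE interneuron-like neurons, at 68.6 and 42.2 CPM. The intervals of the CGE type (72.8 and 42.3 CPM) and Prlr GABA neurons (75.6 and 54.6 CPM) overlapped theirs in both libraries. Over the 9 members, 5 had the same highest neuron type in both libraries: Gria1, Gria2, Gria3, Gria4 and Grik1. For Grik2, Grik3, Grik4 and Grik5 the leading type differed between the libraries. The interval of the leading type overlapped the next in WT, KO or both for Gria2, Gria3, Grik1, Grik3, Grik4 and Grik5. It did so in neither library for Gria1, Gria4 and Grik2. The share of all genes with the same highest type in both libraries was not counted.

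**Figure D2:**
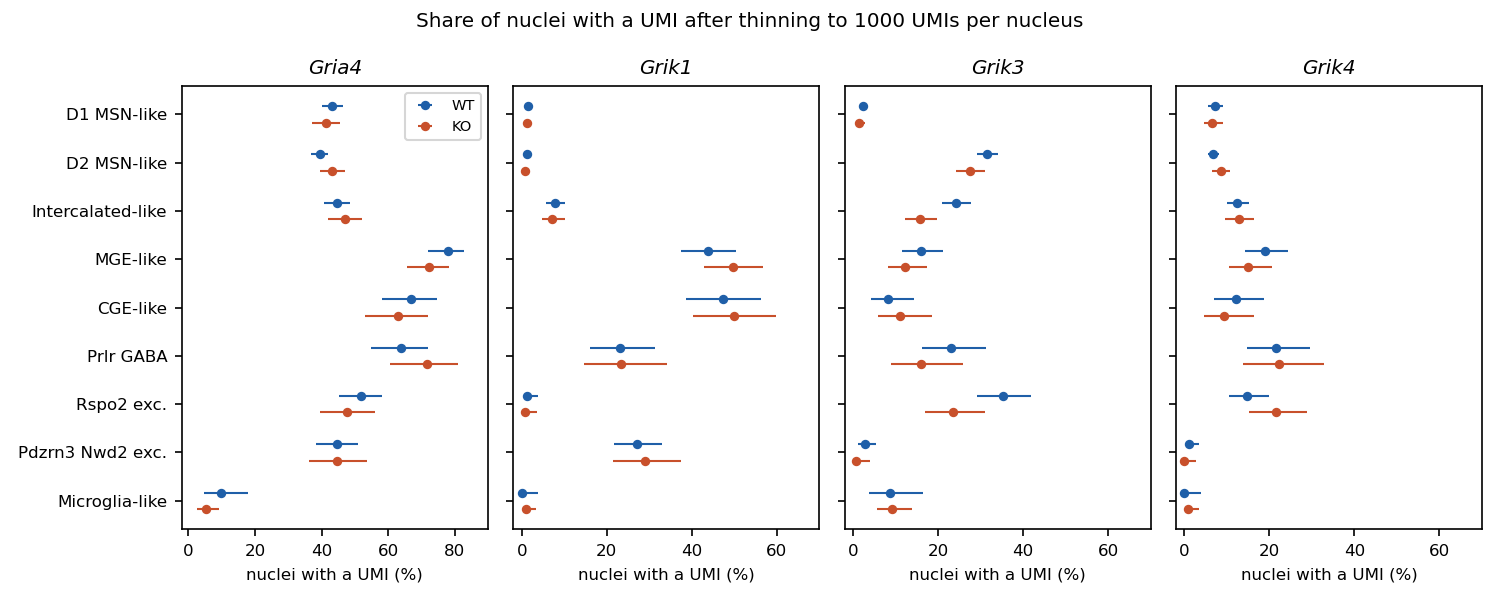
Share of nuclei with at least 1 UMI of Gria4, Grik1, Grik3 or Grik4 after every nucleus was thinned to 1000 UMIs, with exact 95% binomial intervals, for WT (blue) and KO (red). Microglia-like nuclei, at the bottom, are the reference for free RNA and may overstate it for neurons. Grik3 in D1 medium spiny-like nuclei (2.23% in WT) lies under their share (8.70%).

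The make-up of each family is given as shares within a type, compared between types and not between genes, since genes differ in length and capture. Grik1 was 30.2% of Grik UMIs in Pdzrn3 Nwd2 excitatory neurons in WT and 30.7% in KO, and 26.7% and 28.1% in MGE interneuron-like neurons. In Rspo2 basolateral-like neurons it was 1.08% and 1.89%. There Grik3 was 27.9% and 23.0% and Grik4 15.7% and 14.6%. Excitatory neurons held fewer Grik UMIs in all, with 1641 CPM in WT against 2663 CPM in inhibitory neurons, and 1583 CPM and 2880 CPM in KO.

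Cholinergic neurons, gated on Chat, numbered 82 in WT and 38 in KO and so fell short of 50 nuclei in KO. Their Gria total was 2427 (WT) and 2561 CPM (KO), against 4840.1 and 5339 CPM in MGE interneuron-like neurons. Gria4 made up 40.9% of it in WT (38.8 to 42.9) and 49.8% in KO (46.9 to 52.7), above the 36.9% and 35.0% of the MGE type. Gria2 stood at 469 CPM (WT, 426 to 515) and 480 CPM (KO, 419 to 548) in cholinergic neurons. That is under the lowest of the 8 types, the CGE type at 994 and 1158 CPM, so the evenness of Gria2 does not extend to them. Claustrum and endopiriform-like excitatory neurons (86 and 39 nuclei) had Gria4 at 1811 and 1944 CPM, close to the MGE type, with Gria3 at 346 and 531 CPM. Among 20 WT and 53 KO Sim1 excitatory nuclei, Gria2 stood at 1560.4 and 1932 CPM.

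Glial types had their own make-up. Astrocyte-like nuclei held Gria2 at 1350.3 CPM (WT, 1302 to 1400.1) and 1354 CPM (KO, 1301 to 1409.9), a level within the range of the neurons. Gria2 was 70.2% and 69.8% of their Gria UMIs, and Gria3 and Gria4 stood at 43.0 to 71.8 CPM. In microglia-like nuclei Gria2 was at 332 and 254 CPM, Gria3 at 89.4 and 64.3 CPM and Gria4 at 89.4 and 70.2 CPM. The astrocyte values of Gria3 and Gria4 lay under these and were not told apart from free RNA, whereas that of Gria2 lay above. The summed level of 10 neuron markers was 1670.2 and 1200.03 CPM in astrocyte-like nuclei, 2766 and 2137 CPM in microglia-like nuclei, and 21425 and 22869 CPM in excitatory neurons.

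Oligodendrocyte precursor-like nuclei carried 6 members whose counting intervals lay above those of microglia-like nuclei in both libraries. For Grik3 (169 and 164 CPM, against 115 and 81.9 CPM) that held in KO alone. The share of all genes that lay above microglia-like nuclei in this way was not counted, so the number is a description only. Gria2 stood at 1172 (WT) and 1278 CPM (KO), Gria4 at 948 and 1163 CPM and Gria3 at 539 and 557 CPM. Among kainate genes, Grik1 stood at 429.9 and 398 CPM, Grik2 at 1448 and 1197 CPM and Grik4 at 323 and 299.6 CPM. Mature oligodendrocyte-like nuclei held Grik2 at 1478 and 1277 CPM, 85.0% and 80.5% of their Grik UMIs, but Gria2 at 292 and 240.5 CPM and Gria1 at 167 and 111 CPM, near the microglia values of 211 and 164 CPM. Their neuron markers summed to 2107 and 1589 CPM, and the part of free neuronal RNA in these levels was not tested. In microglia-like nuclei Grik1 had 0 UMIs in WT, with an exact upper bound of 23.6 CPM, and 4 in KO (11.7 CPM, 3.19 to 29.9).

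**Figure D3:**
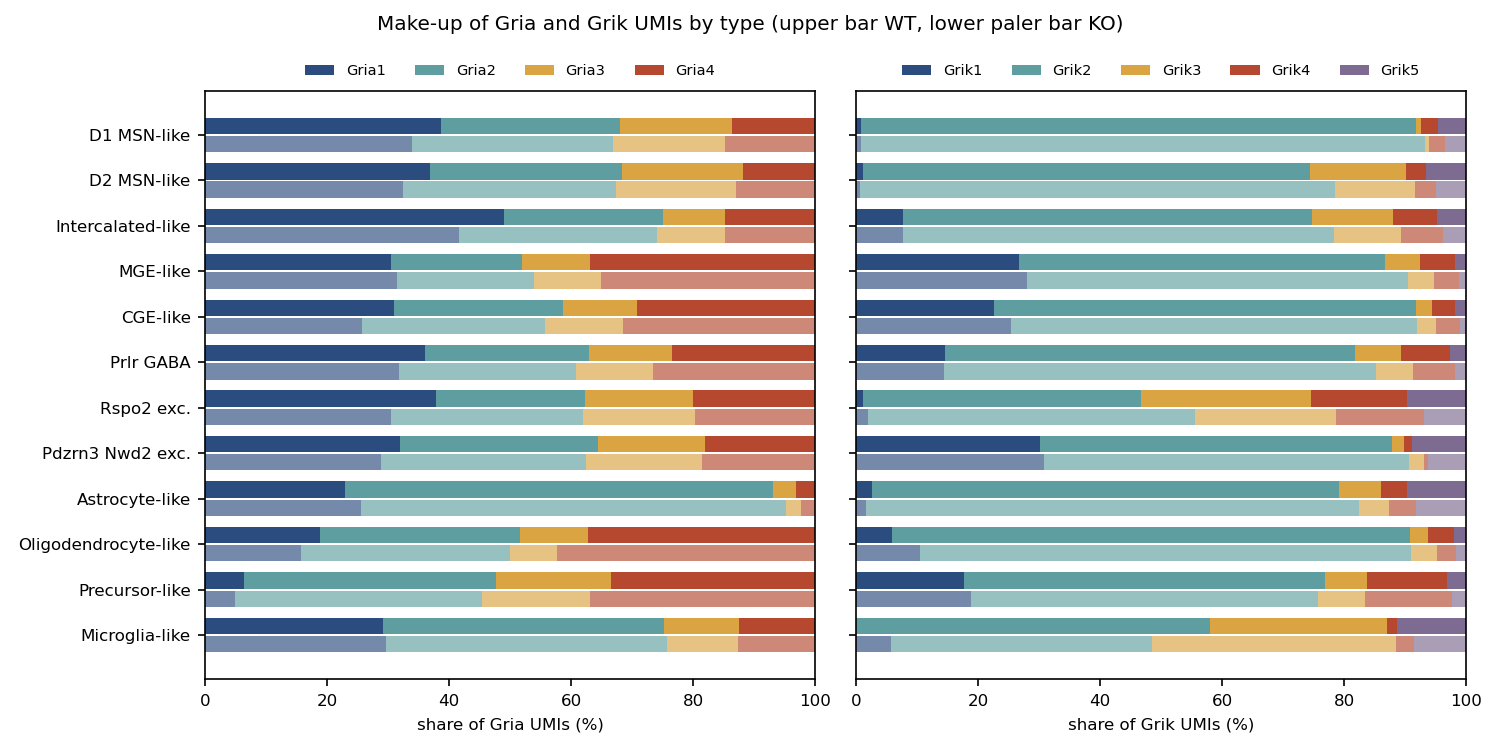
Share of each gene in the Gria UMIs (left) and Grik UMIs (right) of 12 types, in percent, with the WT library in the upper bar and the KO library in the lower, paler bar. The Rspo2 type stands out among neurons by its Grik3 share (27.9% in WT), and astrocyte-like nuclei by their Gria2 share (70.2%).

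The comparison of the libraries asks whether the subunit genes stood at other levels where Sema6d was deleted. In excitatory neurons Grik3, Grik4 and Grik5 were lower in KO by more than 1.3-fold (a log2 ratio past 0.38), and no member was higher by that much. Grik3 stood at 287 (WT) and 186 CPM (KO), a log2 ratio of -0.62 (-0.70 to -0.55). Grik4 stood at 203 and 129 CPM, a log2 ratio of -0.66 (-0.75 to -0.56). Grik5 stood at 125 and 74.5 CPM, a log2 ratio of -0.75 (-0.87 to -0.63). Thus 3 of 9 members were past the fold in the lower direction and 0 in the higher, where 10.8% and 16.6% of the 15461 genes with at least 20 UMIs were. Among the 4275 genes with at least 1000 UMIs, as all 9 members had, the shares were 5.4% lower and 4.44% higher. The median log2 ratio over the members was 0.05, beside 0.04 over all genes tested.

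Shares of excitatory nuclei with a UMI, after thinning to 1000 UMIs, ran the same way for these 3 genes. Grik3 was found in 21.2% (WT) and 13.2% (KO), Grik4 in 16.2% and 11.7%, and Grik5 in 10.8% and 6.51%. Microglia-like nuclei had 8.70% and 9.05% for Grik3, 0 of 92 and 0.952% for Grik4, and 4.35% and 1.90% for Grik5. The Grik3 and Grik5 shares may thus include a part from free RNA. Median depths before thinning were 10079 and 10472 UMIs in excitatory nuclei. The other kainate receptor genes were higher in KO: Grik2 stood at 825 and 982 CPM (log2 ratio 0.25), and Grik1 at 201 and 211 CPM (0.07, or -0.01 when nuclei were classed by Leiden cluster).

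The AMPA receptor genes differed less. In excitatory neurons Gria1 stood at 1397 (WT) and 1205 CPM (KO) (log2 ratio -0.21), Gria2 at 1182 and 1469 CPM (0.31), Gria3 at 694 and 744 CPM (0.10) and Gria4 at 789 and 815 CPM (0.05). The direction of Gria4 turned to -0.01 with either other scaling. Gria1 made up 34.4% of Gria UMIs in WT and 28.5% in KO, and Gria2 29.1% and 34.7%.

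In inhibitory neurons 1 of 9 members was past the fold in the higher direction and 1 in the lower, where 16.2% and 9.01% of 18062 genes were. With at least 1000 UMIs, which all 9 members reached, the shares were 5.27% and 3.73% of 8768 genes. Grik1 was the higher one, at 250.1 (WT) and 337 CPM (KO) (log2 ratio 0.43, 0.39 to 0.47). Its ratio came under the fold with TMM scaling (0.37), median of ratios scaling (0.36), thinned nuclei (0.35) and the same subtype weights in both libraries (0.23). MGE interneuron-like nuclei, the type with the highest Grik1, were 244 of 5911 inhibitory nuclei in WT and 213 of 3428 in KO. Within that type the ratio was 0.08 (-0.01 to 0.16), and within the CGE type 0.20 (0.08 to 0.32). Grik5 was the lower one, at 114 and 80.5 CPM (-0.51, -0.58 to -0.44). The median over the members was 0.04, beside 0.05 over all genes. The other members lay under the fold. Gria1 stood at 1694 and 1456 CPM (-0.22), Gria2 at 1284 and 1467 CPM (0.19), Gria3 at 730.2 and 716 CPM (-0.03) and Gria4 at 796 and 953 CPM (0.26). Grik2 stood at 1975 and 2161 CPM (0.13), Grik3 at 194 and 169 CPM (-0.20) and Grik4 at 130.03 and 133 CPM (0.04, or -0.03 with either other scaling). Gria1 was thus lower and Gria2 higher in KO in both classes. Of the classes, Grik4 was past the fold in excitatory neurons alone. Within types the Grik4 ratio was -0.45 (-0.65 to -0.26) in the inhibitory MGE type and -0.32 (-0.51 to -0.14) in the Rspo2 type. The difference between the classes was not tested.

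Grik5 was lower in KO in 8 of 8 neuron types, with log2 ratios from -0.78 in the CGE type to -0.26 in the D1 type. In 7 of the 8 the counting interval lay under 0, the exception being Prlr GABA neurons (-0.47, -1.04 to 0.08). Of 9002 genes with at least 20 UMIs in each of the 8 types, 7.24% were lower in all 8, and 1.38% were lower past 1.3-fold in at least 6 of 8, as Grik5 was. It was also lower in the 4 glial types (-1.35 to -0.43) and in the 3 smaller neuron types (-0.68 to -0.25). Of these 7 types, the interval lay under 0 in astrocyte-like nuclei (-0.92 to -0.12) and claustrum and endopiriform-like neurons (-1.22 to -0.16) and crossed 0 in the others. Microglia-like nuclei had 7 and 6 UMIs of Grik5. Being lower in glia was not particular to Grik5. There 7 of 9 members were lower in astrocyte-like, 7 of 9 in oligodendrocyte-like and 6 of 9 in precursor-like nuclei. In microglia-like nuclei all 6 members with at least 20 UMIs were lower. In the smaller neuron types 3 or 4 of 9 were. The share of all genes lower in these 7 types was not counted. In Rspo2 basolateral-like neurons the values were 150.1 CPM (WT, 136 to 165) and 91.6 CPM (KO, 78.6 to 106), and in D2 medium spiny-like neurons 148 CPM (142 to 156) and 121 CPM (113 to 130.3). The mitochondrial share was lower in KO in the same types, and its part in the result was not tested. Library and genotype cannot be told apart here.

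Gria2 was higher in KO in 8 of 8 neuron types, with log2 ratios from 0.07 in Prlr GABA neurons to 0.34 in the Rspo2 type, where 6.52% of the 9002 genes were higher in all 8. The interval crossed 0 in Prlr GABA neurons (-0.04 to 0.18) and lay above 0 in the other 7. None of these ratios passed 1.3-fold. Gria1 was lower in 7 of 8 types (-0.35 to -0.04), a pattern of at least 7 lower that 17.1% of genes had. The exception was the MGE type, where Gria1 stood at 1471 CPM (WT, 1423 to 1520.1) and 1675.5 CPM (KO, 1622 to 1730.2), a log2 ratio of 0.19 (0.12 to 0.25). In the Rspo2 type it stood at 1818 and 1426 CPM (-0.35, -0.42 to -0.28). Within the types, scaling was by total UMIs alone. Over the whole classes other scalings lowered every ratio by 0.05 to 0.07, and both genes kept their direction there. A shift of that size is as large as the Gria2 ratio in Prlr GABA neurons.

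Grik3 differed by type. It was lower in KO in the Rspo2 type (-0.49, -0.63 to -0.35), the MGE type (-0.42, -0.61 to -0.22) and intercalated-like neurons (-0.32, -0.47 to -0.17). It stood at 0.00 (-0.35 to 0.34) in D1 neurons, where it was not told apart from free RNA. In the CGE type the ratio was 0.21, with an interval from -0.15 to 0.57, and in the D2 type -0.15 (-0.23 to -0.07). In the Pdzrn3 Nwd2 type, where Grik3 was not told apart from free RNA, the ratio was 0.40 (-0.06 to 0.86). Grik4 was lower in the MGE type (-0.45, -0.65 to -0.26) and the Rspo2 type (-0.32, -0.51 to -0.14) and higher in the D2 type (0.22, 0.06 to 0.38). In the Rspo2 type the thinned share of nuclei with a Grik4 UMI ran the other way (14.7% and 21.5%), so the direction there depends on the measure. In the Pdzrn3 Nwd2 type, where Grik4 was not told apart from free RNA, its ratio was -0.77 (-1.53 to -0.06) on 62 and 23 UMIs. Claustrum and endopiriform-like neurons, with 39 nuclei in KO, held 209 and 117 CPM of Grik3 (-0.83) and 297 and 193 CPM of Grik4 (-0.62). Differences between types in these ratios were not tested.

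**Figure D4:**
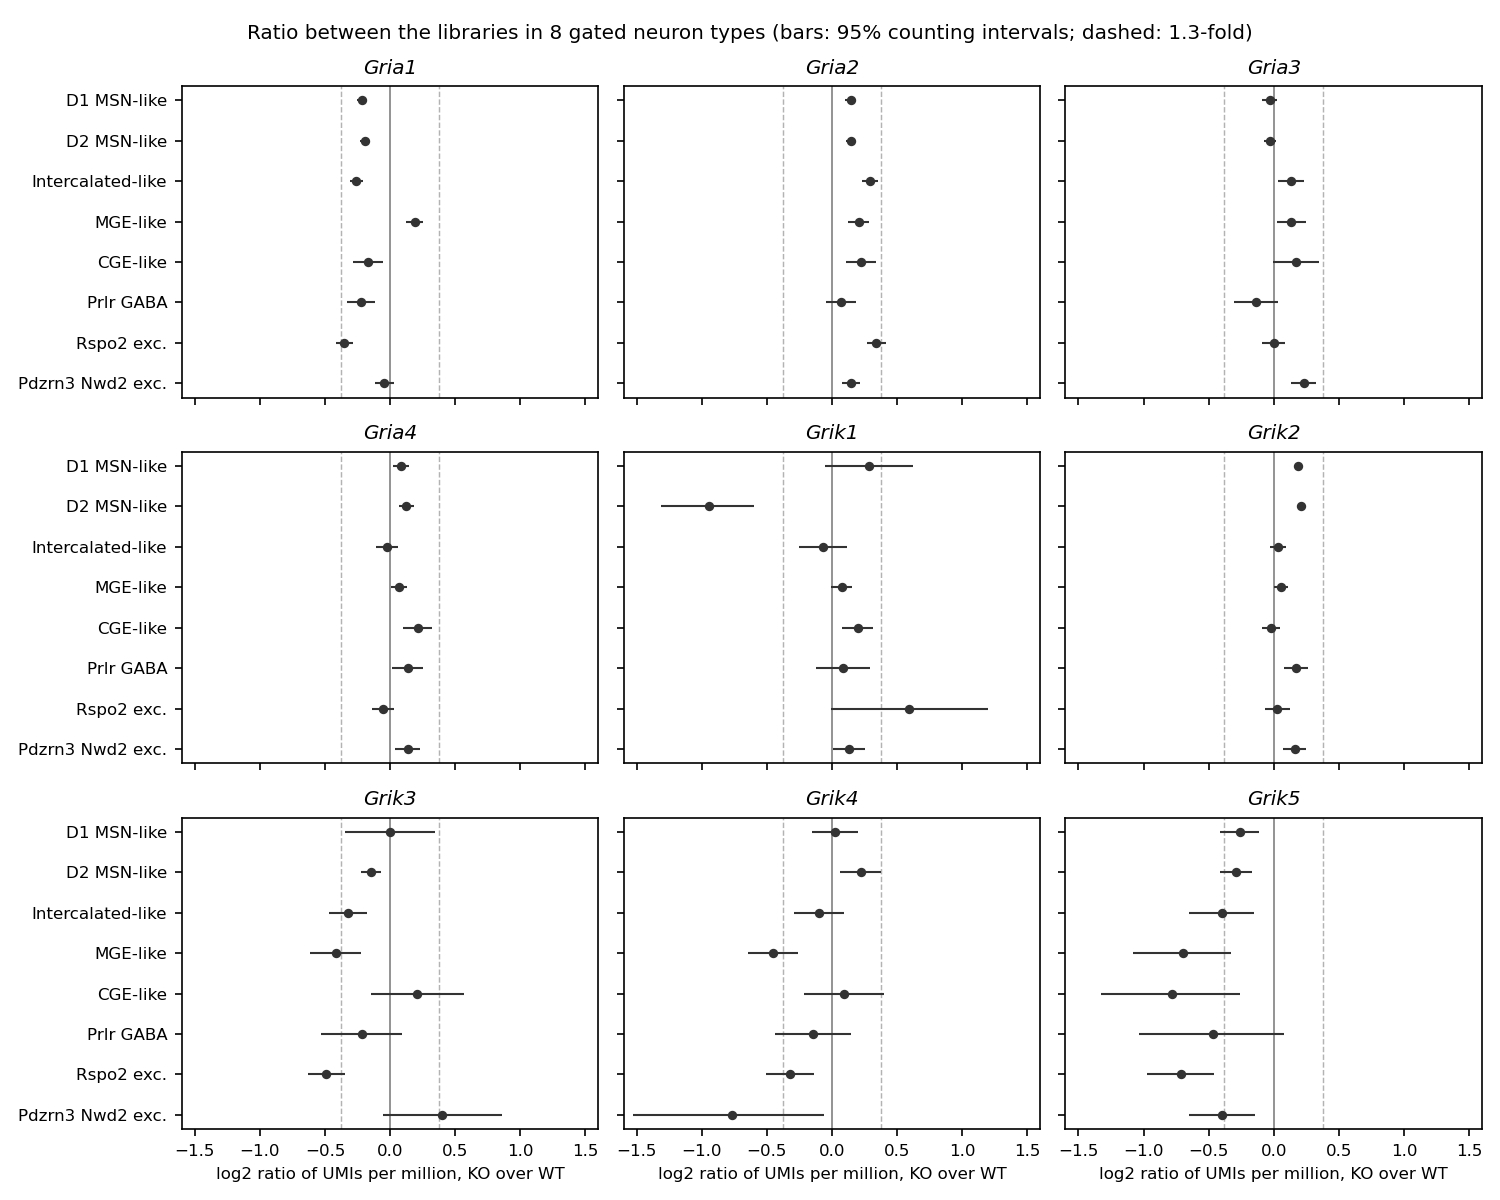
The log2 ratio of CPM, KO over WT, of each subunit gene in the 8 gated neuron types, with exact 95% counting intervals; dashed lines mark 1.3-fold. Grik5 lies left of 0 in all 8 types (-0.78 to -0.26) and Gria2 right of 0 in all 8 (0.07 to 0.34).

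The partners of these receptors were taken from a list of 33 genes for proteins that include auxiliary subunits, assembly factors and anchoring proteins. In excitatory neurons 31 of them had at least 20 UMIs, and their median log2 ratio was -0.12. Over all genes with at least 20 UMIs the median was 0.04, and over those with at least 1000 UMIs -0.02. Past 1.3-fold were 2 higher and 4 lower, of 31, beside 16.6% and 10.8% of all genes. Genes of at least 20 CPM were ranked. The lowest were Grip2, which anchors GluA2 (25.1 and 16.1 CPM, -0.64), and 3 TARPs, the auxiliary subunits that carry AMPA receptors to the synapse: Cacng4 (23.1 and 15.7 CPM, -0.56), Cacng8 (62.6 and 44.1 CPM, -0.51) and Cacng2 (118 and 85.1 CPM, -0.47). Among the highest were C1ql3, a secreted synaptic organiser (61.2 and 81.5 CPM, 0.41), Porcn (49.6 and 65.1 CPM, 0.39) and Cnih2, a cornichon auxiliary subunit (45.6 and 50.4 CPM, 0.14). In thinned nuclei Grip2 (-0.13), Cacng4 (-0.29) and Porcn (0.11) came under the fold, Cnih2 turned to -0.05 and C1ql3 stood at 0.74. With TMM scaling C1ql3 (0.36) and Porcn (0.34) came under the fold, and with the same subtype weights Porcn did (0.35).

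In inhibitory neurons all 33 were counted, with a median of -0.05. Over all genes with at least 20 UMIs the median was 0.05, and over those with at least 1000 UMIs 0.02. Past the fold were 3 in each direction, of 33, beside 16.2% and 9.01% of all genes. Of the 3 higher ones, Shisa8 (2.22 and 3.23 CPM) and C1ql3 (6.57 and 10.3 CPM) lay under the 20 CPM asked of a gene to be ranked here. Cacng4 (71.0 and 51.2 CPM, -0.47), Neto2, an auxiliary subunit of kainate receptors (197 and 146 CPM, -0.44), Cacng3 (196 and 147 CPM, -0.41) and Cacng2 (113 and 86.9 CPM, -0.38) were lowest. Porcn (35.3 and 46.7 CPM, 0.40), Abhd12 (115 and 133 CPM, 0.20), Abhd6 (52.8 and 57.0 CPM, 0.11) and Nptxr, a neuronal pentraxin receptor (23.9 and 25.5 CPM, 0.10), were highest. Porcn came under the fold in thinned nuclei (0.34) and with TMM scaling (0.34), and Cacng3 in thinned nuclei (-0.33). Cacng2, just under the fold, was past it in thinned nuclei (-0.40), with TMM scaling (-0.44) and with the same subtype weights (-0.39). Abhd6 stood at 0.03 in thinned nuclei and 0.05 with TMM scaling, and Nptxr at 0.04 with TMM scaling. Cacng2 and Cacng4 were thus among the 4 lowest, and Porcn among the 4 highest, in both classes.

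Genes whose levels ran alongside the members were sought over 12 types, by Pearson's r of log2(CPM + 10) in WT among 10181 genes, with the same r in KO. The points share a library and its free RNA, and 4 of them are glia, so the values are a description. Grik1 was nearest to Cacng7, a TARP gene (r = 0.90 in WT and 0.88 in KO), Rnf152 (0.89 and 0.88) and Pde3a (0.87 and 0.87). Prkab2 (0.99 and 0.97) and Cap2 (0.93 and 0.87) were among the genes nearest to Grik5. Gria2 was nearest to the adhesion receptor genes Adgrl3 (0.98 and 0.97) and Adgrb3 (0.97 and 0.98) and to Ptpn12 (0.97 and 0.77). Gria1 was nearest to Pdlim7, Shank3 and Klhl29, Gria3 to Reep1, Samd12 and Cyfip2, and Gria4 to Adam22, Xkr4 and Snap91, with r from 0.96 to 0.97 in WT. In KO these ran from 0.76 for Shank3 to 0.98 for Samd12. For Grik2 (Tsta3, Cenpc1 and Dimt1, r of 0.89 to 0.91) and Grik4 (Ilf2, Mdm1 and Polr3a, 0.91 to 0.94) the KO values were as low as 0.68 and 0.20. Grik3 had no near neighbour, with Tigd2 at 0.77 in WT and 0.55 in KO, then Unkl (0.73 and 0.30) and Oprd1 (0.72 and 0.69). Among the members themselves, Gria3 and Gria4 were closest (0.83 and 0.84), and Grik1 and Grik5 farthest apart (-0.12 and -0.19).

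In GRCm38 the 9 genes lie on 8 chromosomes, with Gria4 and Grik4 both on chromosome 9 and Gria3 on X. Their spans run from 62.5 kb for Grik5 (ENSMUSG00000003378, chromosome 7, 25009849 to 25072346, minus strand) to 693.9 kb for Grik2 (ENSMUSG00000056073, chromosome 10, 49094833 to 49788766, minus strand). Grik3 (ENSMUSG00000001985) spans 125490700 to 125714173 on chromosome 4, plus strand, and Grik1 (ENSMUSG00000022935) 87895900 to 88290265 on chromosome 16, minus strand. Apart from Grik2, no member overlaps another gene of the deposited matrices, the only genes searched.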

How the data were processed

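Single-nucleus RNA was measured by droplet sequencing with the 10x 5′ version 2 kit, per the labels' protocols, in 1 WT and 1 KO library. The deposited matrices hold raw UMI counts per gene and nucleus barcode, which the authors made with Cell Ranger 6.0.0 on mm10, per the submitters' processing notes; the handling of intronic reads is not given in the sources used here. Of 32285 gene identifiers 32158 matched a symbol. Depth before filtering was 85124128 UMIs over 11060 barcodes (WT) and 60402979 over 8666 (KO).

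Barcodes with under 500 genes (12 and 143) or over 5% mitochondrial UMIs (259 and 428), and doublets called by Scrublet in scanpy 1.11.5 (422 and 222), were left out. A nucleus was called a neuron with at least 6 of 10 neuron markers and under the minimum of every glial list (4 or 5 markers), and excitatory or inhibitory with at least 2 markers of that list and more than of the other. Subtype gates added minimum and maximum UMIs of defining genes. UMIs were summed per type and library and given per 1000000 UMIs of the type (CPM). Ratios are log2 of KO over WT. Intervals are exact Poisson, Clopper-Pearson and conditional binomial ones at 95%. Only the conditional binomial intervals of ratios were checked, on simulated independent counts of the kind they assume. A PCR or ambient effect, variation between nuclei and differences between animals lie outside the intervals.

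The members and gene lists were chosen with earlier results of these data known. Named partners are the 4 highest and 4 lowest ratios of the list among genes with 100 UMIs over both libraries and 20 CPM. For each member the 3 genes of highest r are named, leaving out gate markers and unnamed gene models. Some genes that these rules select are not reported here. TMM came from edgeR 4.0.16, and the Leiden alternative from leidenalg 0.10.2. The alternatives were a minimum of 1000 genes, doublets kept, Leiden clusters, 1 marker more per gate, 2 other scalings, thinning to 1000 UMIs (103 WT and 183 KO nuclei are shallower), equal subtype weights and a minimum of 100 UMIs.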

Additional observations from a re-analysis of the deposited data

Results flagged for a closer look

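The Grik1 ratio pointed in opposite directions in 2 glial types. In oligodendrocyte-like nuclei Grik1 stood at 101 CPM in WT (117 UMIs) and 166 CPM in KO (368 UMIs), a log2 ratio of 0.72. In astrocyte-like nuclei it stood at 17.5 CPM (38 UMIs) and 9.05 CPM (16 UMIs), a log2 ratio of -0.95. The difference between these ratios was not tested, and with 1 library per genotype it has no replicate check. The astrocyte levels lie under the exact upper bounds of Grik1 in microglia-like nuclei, 23.6 CPM in WT and 29.9 CPM in KO.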

How the results depend on the processing

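No paired analysis was possible because each genotype has 1 library and no result comes from a test. The median log2 ratio over the 9 members in excitatory neurons was 0.05 and moved to -0.01 with Leiden clusters (-0.0072), TMM scaling (-0.0083) and median of ratios scaling (-0.0106), and to 0.10 with the same subtype weights in both libraries (0.0966). In inhibitory neurons it was 0.04 and moved to 0.10 in thinned nuclei, to -0.0250 with TMM scaling and to -0.0318 with median of ratios scaling. It also turned to -0.0036 with Leiden clusters and to -0.0028 with the same subtype weights. The sign of either median thus depends on the scaling and on how nuclei were classed, and that of the inhibitory one also on the weights. The scalings shifted each class as a whole by 0.05 to 0.07; for the other settings the cause was not tested. For 15 values of these medians and of the count of members with the same highest type in both libraries, the move was smaller. They include the inhibitory medians with Leiden clusters and with the same subtype weights. The count was 5, and 4 to 6 under the alternatives. Grik3 in excitatory neurons ranged from -0.88 to -0.51, Grik4 from -0.71 to -0.61 and Grik5 from -0.80 to -0.62, and Grik5 in inhibitory neurons from -0.86 to -0.46, past 1.3-fold in each setting run. Grik1 in inhibitory neurons ranged from 0.23 to 0.43. Of the levels in single types 67 moved beyond their counting interval and 338 did not. Of the ratios of single genes, taken with the medians over the auxiliary list, 63 moved and 135 did not. Some levels were not told apart from free RNA. They are Grik1 in D1, D2 and Rspo2 neurons, Grik3 in D1 and Pdzrn3 Nwd2 neurons and Grik4 in Pdzrn3 Nwd2 neurons. The few microglia-like nuclei used as the reference limit that comparison. Depth limits every member in microglia-like nuclei (156562 and 341990 UMIs in all).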
